A study of Homo sapiens with 12 samples.

Results

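The expression of 41 genes of G2 phase and mitosis was followed in KMS11 and its gene-targeted derivatives, 4 lines in all. KMS11 comes from a human multiple myeloma, carries the t(4;14) translocation and overexpresses the histone methyltransferase MMSET (NSD2) from the rearranged IGH-MMSET allele. The genes were taken from a fixed list of cyclins, mitotic kinases, spindle checkpoint proteins, kinetochore proteins, spindle motors and anaphase regulators. They were chosen by name, with no threshold on a measured value, though earlier results of these data were known. TKO1 and TKO2 are separate clones in which homologous recombination inactivated the overexpressed allele, so that only the wild-type allele remains. In NTKO the targeting hit the other allele: the IGH-MMSET allele is still expressed and the untranslocated copy is inactivated. WT is the parental line with both alleles. Total RNA of each line was hybridised to 3 Illumina bead arrays, 12 in all, and TKO below means the 6 arrays of both clones. All 41 genes passed the detection filter, of 9857 genes tested and 18665 genes with a probe, and the probe used for each was detected on every one of the 12 arrays. Of their 62 probes 61 were kept.

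Cells enter mitosis when CDK1, bound to B-type cyclins and switched on by CDC25 phosphatases, phosphorylates its many substrates. Chromosomes then attach to spindle microtubules through kinetochores, and the spindle checkpoint holds back the anaphase-promoting complex until every kinetochore is attached. Many of these genes are transcribed together in G2, when the MuvB complex with B-MYB (MYBL2) and FOXM1 acts on promoters with CHR and CCAAT elements, and p53 activity is known to lower them. In myeloma, high expression of such genes marks rapidly dividing plasma cells. In RNA from a whole culture, fewer cells in mitosis and less RNA per cell cannot be told apart.

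Promoters are shown because many of these genes share the same short elements: 5 windows with such elements are printed, and that of CDC25C, in which no match was found. RefSeq promoter windows (GRCh38.p14, 250 bases before to 50 bases after the annotated start) were matched for 35 of the 41 genes. On either strand, 74.3% of them held CCAAT, against 35.7% of all 27305 promoters in the table. A CHR, searched as TTTGAA or TTTAAA (the second reads the same on both strands), was in 77.1%, against 24.3% of all promoters, and 57.1% held both kinds of element, against 9.49%. The 100 bases that end just before the start are printed 5′ to 3′ on the gene's strand, with these elements, or their reverse complements, in capitals.
CCNB2 (chr15:59105046-59105145, plus strand): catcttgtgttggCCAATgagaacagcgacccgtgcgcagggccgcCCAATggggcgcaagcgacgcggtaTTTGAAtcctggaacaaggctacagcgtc
PRC1 (chr15:90994536-90994635, minus strand): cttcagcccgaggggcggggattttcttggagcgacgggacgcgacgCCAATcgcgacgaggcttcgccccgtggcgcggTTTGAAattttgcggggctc
CENPA (chr2:26785956-26786055, plus strand): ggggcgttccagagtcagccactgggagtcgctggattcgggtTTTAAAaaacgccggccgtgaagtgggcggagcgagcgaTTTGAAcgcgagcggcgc
BUB1 (chr2:110678064-110678163, minus strand): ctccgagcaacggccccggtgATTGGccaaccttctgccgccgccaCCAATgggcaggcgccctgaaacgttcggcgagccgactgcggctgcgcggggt
KIF11 (chr10:92593030-92593129, plus strand): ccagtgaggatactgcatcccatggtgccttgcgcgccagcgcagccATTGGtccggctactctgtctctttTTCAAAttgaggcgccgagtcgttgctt
CDC25C (chr5:138338356-138338455, minus strand): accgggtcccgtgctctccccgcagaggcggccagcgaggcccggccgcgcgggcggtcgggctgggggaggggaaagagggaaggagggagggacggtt
The CDC25C window held none of these letters. Only the window at the annotated start used was searched, so this does not show that CDC25C lacks such elements. In KIF2C and NDC80 the only match was a CHR that runs across the start, and in CDK1 the matches lay upstream of the last 100 bases. CCNB2, PRC1, CENPA and CDC25C were lower in TKO than in NTKO once NTKO replicate 2 was left out, whereas BUB1 and KIF11 lay below the WT range on NTKO replicates 1 and 3. Of the matched promoters of the genes lower in TKO in that comparison 11 of 15 held a CHR, and of the other matched promoters 16 of 20 did. A match of letters is a description of the window and not a shown binding site.

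NTKO replicate 2 stood apart from the other NTKO arrays. Its log2 intensities correlated with those of NTKO replicates 1 and 3 at r = 0.941 and 0.944 across all 9857 genes, below its 0.973 to 0.978 with the WT arrays, and r between NTKO replicates 1 and 3 was 0.994. Arrays within TKO1, TKO2 or WT correlated at 0.985 to 0.995. Counts of called genes are therefore given on all 12 arrays and again without that array, as are the differences of genes whose call changed. That array was set aside for its measured values, so NTKO is then replicates 1 and 3, which agree by that choice. Calls over all genes then rose, in TKO minus NTKO from 29.8% to 48.9%. Results without it are therefore descriptions and not separate evidence. Many genes described array by array below were picked by their calls without it. That NTKO replicates 1 and 3 stand apart in those genes follows in part from that choice. NSD2 itself measured 5.71, 5.58 and 6.07 in TKO1 and 5.46, 5.44 and 5.76 in TKO2, against 6.09, 6.29 and 6.43 in NTKO and 6.56, 6.18 and 6.35 in WT (log2 intensity), so no TKO array reached an NTKO or WT array. The difference, TKO minus NTKO, was -0.59 (SE 0.17, limma adjusted p = 0.0142), and whether this probe lies within the inactivated part of the allele was not examined. Plasma cell markers were detected on all arrays of a line for 7 of 8 genes in each TKO clone and for 8 of 8 in NTKO and WT, CD38 being the exception in TKO, and in TKO minus NTKO 4 of the 8 were lower and 1 higher. The summed intensity of their kept probes ran from 30520 to 36383 in TKO, against 27204 to 34771 in NTKO and 33118 to 35598 in WT. No T cell or fibroblast marker was detected on all 3 arrays of any line. CD68, of the 4 myeloid markers, was detected in every line, and it was not called in any comparison. KRT18, of the 4 epithelial markers, was detected in WT alone and was called lower in TKO (-0.46) and in NTKO (-0.51) than in WT. These differences lie near the limit of detection. The summed intensity of the kept epithelial probes ran from 32.9 to 35.4 in WT, against 23.0 to 28.7 in TKO and 23.5 to 24.1 in NTKO. HBB, an erythroid marker, was detected in every line, and the summed intensity of the kept erythroid probes ran from 133 to 261 in TKO, against 41.3 to 51.2 in NTKO and 77.2 to 83.3 in WT. The part of these markers in the results was not tested. Mean intensity per array ran from 181 to 299.5, and 8832 to 9638 of the tested genes were detected on an array. Only 3 arrays per line limit the precision, and it is not stated that replicates came from separate cultures, so p-values may measure technical spread alone. NTKO and WT are each a single line. A difference particular to the NTKO line therefore cannot be told apart from the effect of the allele lost.

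**Figure D1:**
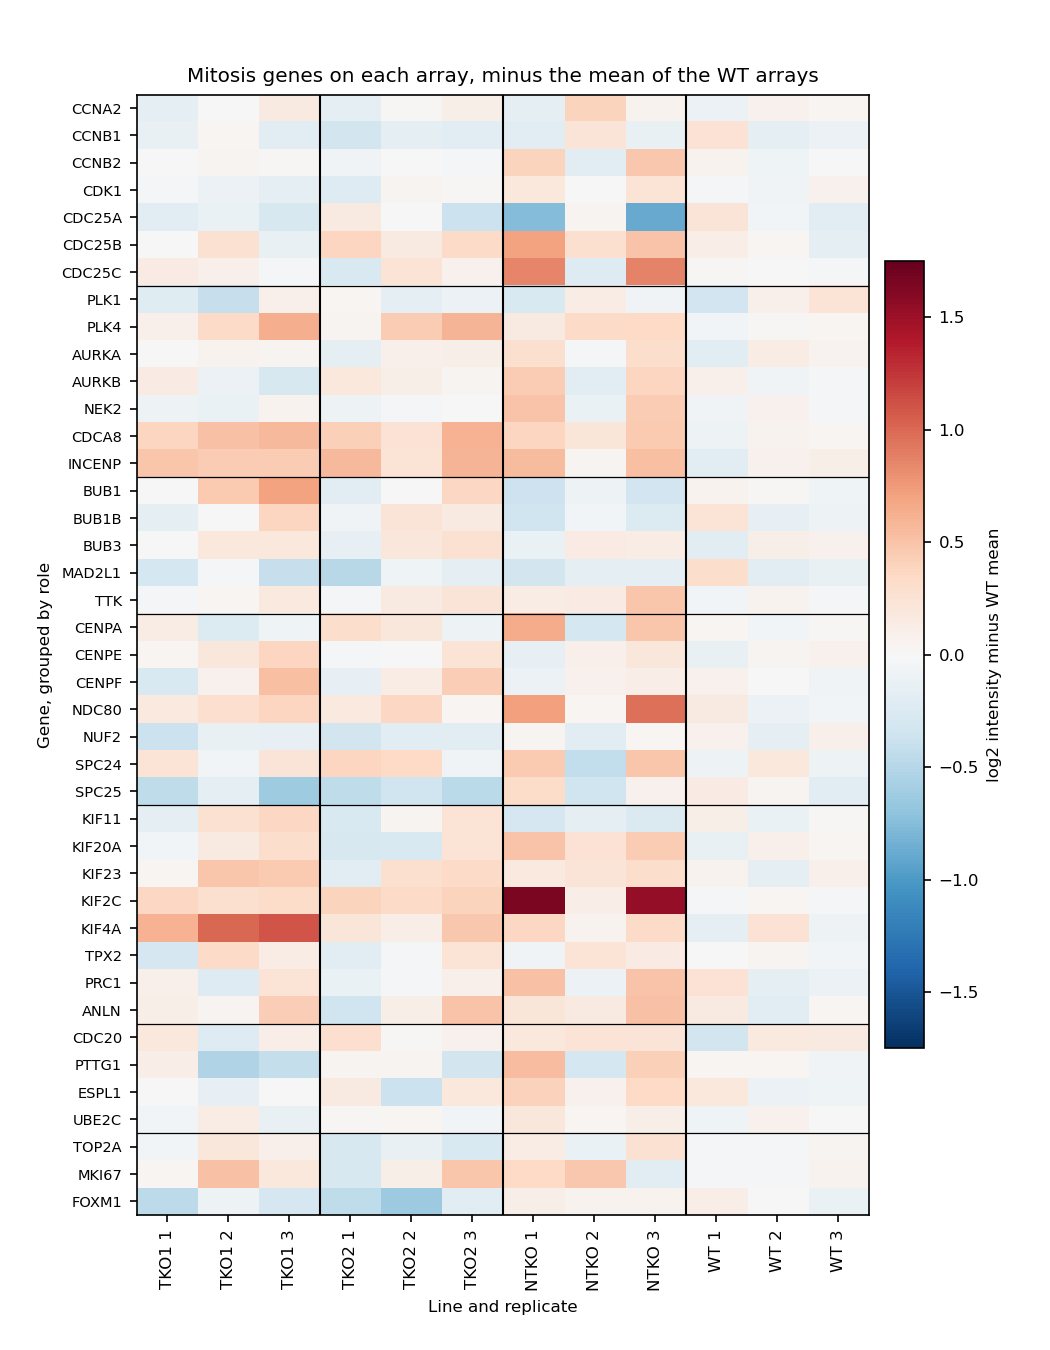
Log2 intensity of each of the 41 mitosis genes (rows, grouped by role) on each of the 12 arrays (columns, TKO1, TKO2, NTKO and WT), minus the gene's mean over the 3 WT arrays. KIF2C on NTKO replicates 1 and 3 has the deepest colours, while no gene lies over 0.5 from the WT mean on NTKO replicate 2.

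Few genes of the list passed the test between TKO and NTKO. With all 12 arrays 3 of 41 genes passed an adjusted p of 0.05 in TKO minus NTKO, which is 7.32%, against 29.8% of all 9857 genes. BUB1 was higher in TKO (2.44% of the list, against 14.3% of all genes called higher), and KIF2C and FOXM1 were lower (4.88%, against 15.5% called lower). Differences were negative for 28 of 41 genes, with a median of -0.14 on the log2 scale, against 0.04 over all genes (-0.22, against 0.05, without NTKO replicate 2). For 40 of 41 genes the 95% confidence interval of the difference lay wholly within a 2-fold change (1 on the log2 scale) in either direction, KIF2C being the exception, while 77.6% of all genes had such an interval. When NTKO replicate 2 was left out that held for 38 of 41 genes, CDC25A and CDC25C being added to KIF2C. Without NTKO replicate 2 the count was 18 of 41 (43.9%, against 48.9% of all genes), and 16 of them were lower in TKO (39.0%, against 23.9%) and 2 higher (4.88%, against 25.1%). All 3 genes called on 12 arrays were among those 18 in the same direction, and 15 were gained.

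Set against WT, the TKO clones differed at a small number of these genes. In TKO minus WT 3 of 41 genes passed (7.32%, against 17.7% of all genes), namely CDCA8, INCENP and KIF4A, all higher in TKO (7.32%, against 6.6% of all genes called higher), and 0 were lower (11.1% of all genes). Leaving NTKO replicate 2 out of the shared estimate of spread gave 6 of 41 (14.6%, against 28.2% of all genes), with KIF2C added to the 3 that were higher (9.76%, against 12.6%) and SPC25 and FOXM1 lower (4.88%, against 15.6%). The median difference was 0.04, against 0.04 over all genes, and all 41 intervals lay within a 2-fold change. In NTKO minus WT 1 of 41 passed (2.44%, against 8.2%), KIF2C, which was higher in NTKO (3.5% of all genes were called higher and 4.7% lower), although 33 of 41 differences were positive and their median was 0.20, against -0.01 over all genes. That median was 0.12 without NTKO replicate 3 and 0.23 without NTKO replicate 2, and with median centring it was -0.05, against -0.19 over all genes. Without NTKO replicate 2, 15 of 41 passed in NTKO minus WT (36.6%, against 35.9% of all genes), 14 of them higher in NTKO (34.1%, against 17.2% called higher) and only CDC25A lower (2.44%, against 18.7%). TKO minus NTKO and NTKO minus WT share the NTKO arrays, so these counts are not separate evidence. Between the clones, TKO1 minus TKO2, limma called 0 of 41 genes (0.862% of all genes, 0.568% higher in TKO1 and 0.294% lower), 2 had an unadjusted p under 0.05 (KIF4A and TOP2A), and the methods' t-test with Benjamini-Hochberg adjustment called 0.

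**Figure D2:**
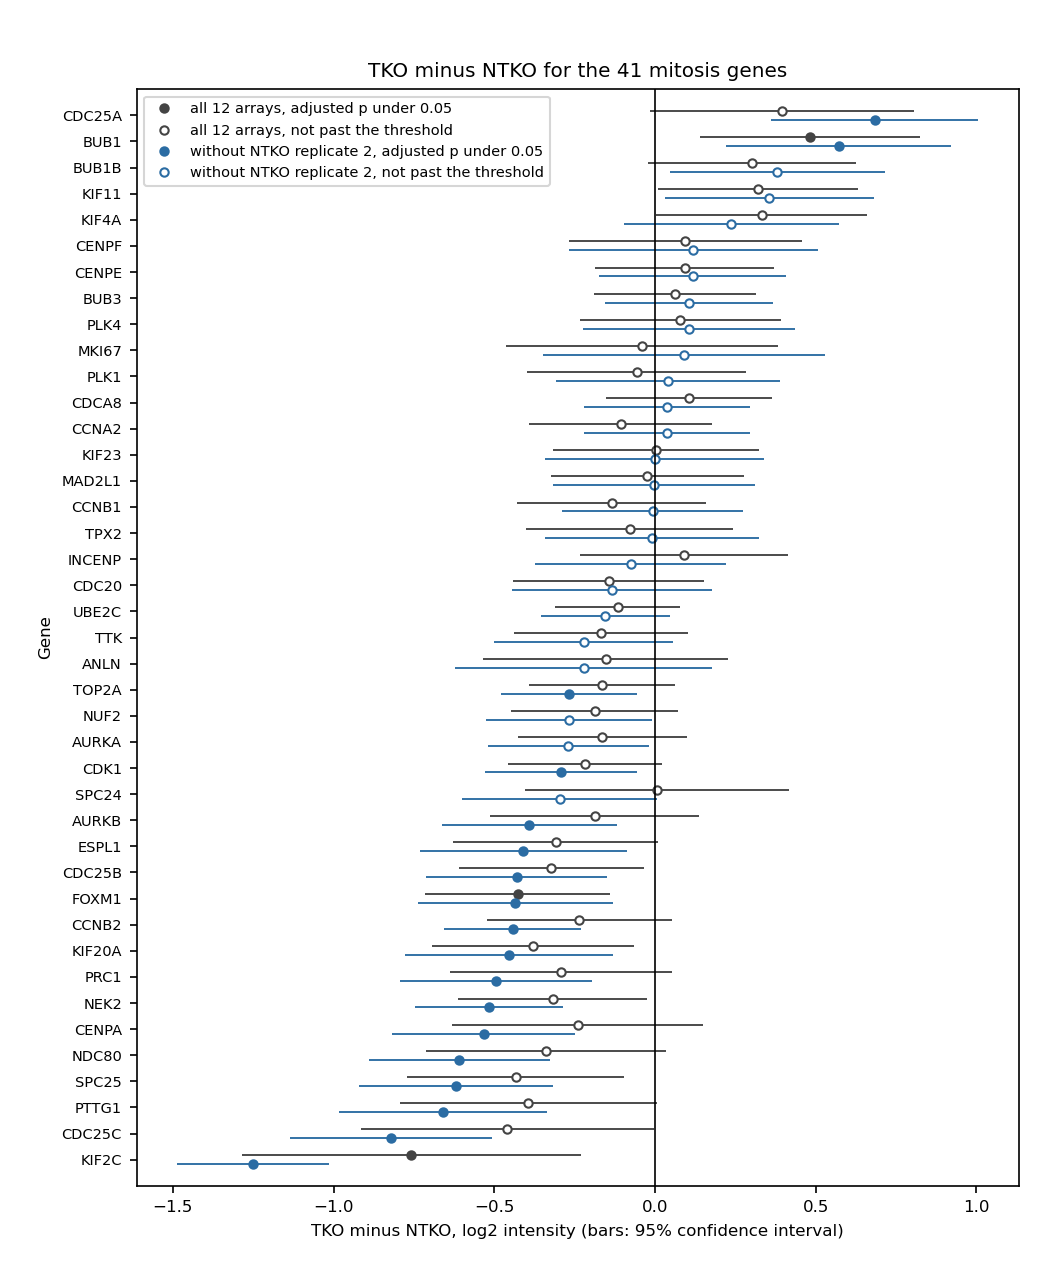
Difference in log2 intensity, TKO minus NTKO, for each of the 41 mitosis genes, with 95% confidence intervals as bars, on all 12 arrays and without NTKO replicate 2. Filled points passed an adjusted p of 0.05 (3 genes on 12 arrays, 18 without NTKO replicate 2), and most intervals lie left of 0 or across it.

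Among the regulators of mitotic entry, phosphatases of the CDC25 family lay apart from WT on NTKO replicates 1 and 3 in both directions. CDC25C, a phosphatase that activates CDK1 at the onset of mitosis, measured 7.20, 7.15 and 7.04 in TKO1 and 6.80, 7.30 and 7.14 in TKO2, against 7.91, 6.84 and 7.93 in NTKO and 7.08, 7.07 and 7.03 in WT. In NTKO, replicates 1 and 3 lay above every array of the other lines, and NTKO replicate 2 lay below the WT arrays. The difference, TKO minus NTKO, was -0.46 (SE 0.21, adjusted p = 0.12) on all arrays and -0.82 (SE 0.15, adjusted p = 0.000228) without NTKO replicate 2. Both further kept probes of CDC25C moved the same way without that array, by -0.79 and -0.66 (adjusted p over probes 0.00156 and 0.00422).

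CDC25A, the family member that also drives entry into S phase, went the other way. It measured 8.37, 8.46 and 8.30 in TKO1 and 8.73, 8.58 and 8.20 in TKO2, against 7.82, 8.62 and 7.69 in NTKO and 8.81, 8.52 and 8.40 in WT. The lowest of the 12 arrays were NTKO replicates 1 and 3, and NTKO replicate 2 lay within the WT range. Against NTKO, TKO differed by 0.39 (SE 0.19, adjusted p = 0.138) on all arrays and 0.68 (SE 0.15, adjusted p = 0.00142) without NTKO replicate 2, and NTKO minus WT was then -0.82 (SE 0.17, adjusted p = 0.00132). CDC25B, which acts on centrosomal CDK1, measured 9.70, 9.96 and 9.56 in TKO1 and 10.07, 9.84 and 10.02 in TKO2, against 10.39, 9.96 and 10.19 in NTKO and 9.81, 9.72 and 9.53 in WT. All 3 NTKO arrays were above all 3 WT arrays, and NTKO minus WT was 0.49 (SE 0.16, adjusted p = 0.0646) on all arrays and 0.60 (SE 0.15, adjusted p = 0.00474) without NTKO replicate 2.

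CDK1, the kinase of mitotic entry, measured 10.67, 10.61 and 10.53 in TKO1 and 10.48, 10.76 and 10.73 in TKO2, against 10.90, 10.70 and 10.95 in NTKO and 10.69, 10.64 and 10.79 in WT. The groups overlapped through NTKO replicate 2, and TKO minus NTKO was -0.22 (adjusted p = 0.161) on all arrays and -0.29 (adjusted p = 0.0383) without it. The further kept CDK1 probe gave -0.30 without that array and did not pass (adjusted p over probes 0.12). CCNB1, the cyclin B that moves to the nucleus with CDK1, measured 8.91, 9.08 and 8.86 in TKO1 and 8.73, 8.89 and 8.84 in TKO2, against 8.87, 9.28 and 8.92 in NTKO and 9.30, 8.89 and 8.95 in WT. All lines overlapped, and TKO minus NTKO was -0.14 with a 95% interval from -0.43 to 0.16. CCNB2, the Golgi-associated cyclin B whose promoter is printed above, measured 10.80, 10.85 and 10.82 in TKO1 and 10.73, 10.79 and 10.77 in TKO2, against 11.20, 10.61 and 11.28 in NTKO and 10.86, 10.73 and 10.80 in WT. Its TKO and WT arrays all lay between 10.73 and 10.86, with NTKO replicates 1 and 3 above them and NTKO replicate 2 below them. Without NTKO replicate 2 CCNB2 differed by -0.44 (SE 0.10, adjusted p = 0.00157). CCNA2, the cyclin of S and G2 phase, differed by -0.11 in TKO minus NTKO (adjusted p = 0.574) and did not pass in any comparison. Of the 7 genes of this role 0 were called in TKO minus NTKO on all arrays (29.8% of all genes), and without NTKO replicate 2, 4 were lower (57.1%, against 23.9% of all genes) and CDC25A was higher (14.3%, against 25.1%).

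Among the mitotic kinases and the chromosomal passenger complex, 2 of 7 genes passed on all 12 arrays, and both were higher in TKO than in WT. Of all genes 6.6% were called higher and 11.1% lower in that comparison. CDCA8 encodes borealin, which places the passenger complex on centromeres. It measured 9.84, 9.97 and 10.04 in TKO1 and 9.89, 9.72 and 10.07 in TKO2, against 9.84, 9.68 and 9.93 in NTKO and 9.38, 9.53 and 9.50 in WT. The WT arrays were the lowest of the 12, below every TKO and NTKO array, and TKO minus WT was 0.45 (SE 0.12, adjusted p = 0.0161). That call was lost without WT replicate 1 or WT replicate 3 and with median centring (adjusted p from 0.00123 to 0.453 over 26 alternatives). INCENP, the scaffold of the same complex, measured 7.92, 7.88 and 7.87 in TKO1 and 8.01, 7.68 and 8.03 in TKO2, against 7.99, 7.48 and 7.96 in NTKO and 7.25, 7.51 and 7.55 in WT. Every TKO array lay above every WT array, and TKO minus WT was 0.46 (SE 0.15, adjusted p = 0.046). The further kept probe of INCENP differed by 0.11 (adjusted p over probes 0.787), and 15 of 26 alternatives ended the INCENP call, among them leaving out any WT array, NTKO replicate 3, any TKO1 array or TKO2 replicate 1 or 3 (adjusted p from 0.00827 to 0.782). CDCA8 and INCENP were not called between TKO and NTKO (0.10 and 0.09).

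None of the kinases of this role passed in any comparison on all 12 arrays. AURKA, the centrosomal Aurora kinase, measured 10.61, 10.66 and 10.65 in TKO1 and 10.44, 10.69 and 10.70 in TKO2, against 10.89, 10.58 and 10.91 in NTKO and 10.41, 10.73 and 10.66 in WT. The highest of the 12 arrays were NTKO replicates 1 and 3, but TKO minus NTKO was -0.16 with an interval from -0.43 to 0.10 (-0.27, adjusted p = 0.0686, without NTKO replicate 2). AURKB, the kinase of the passenger complex, measured 9.23, 8.98 and 8.80 in TKO1 and 9.26, 9.19 and 9.14 in TKO2, against 9.53, 8.88 and 9.46 in NTKO and 9.18, 9.02 and 9.07 in WT. Again NTKO replicates 1 and 3 were the highest and NTKO replicate 2 was below WT, and without it TKO minus NTKO was -0.39 (SE 0.13, adjusted p = 0.0184).

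NEK2, a kinase of centrosome separation, had the same layout of arrays. It measured 10.05, 10.03 and 10.21 in TKO1 and 10.04, 10.12 and 10.14 in TKO2, against 10.64, 10.02 and 10.58 in NTKO and 10.08, 10.22 and 10.12 in WT. Its difference, TKO minus NTKO, was -0.32 (SE 0.14, adjusted p = 0.0957) on all arrays and -0.52 (SE 0.11, adjusted p = 0.000902) without NTKO replicate 2. The further kept NEK2 probe differed by -0.28 without that array and did not pass (adjusted p over probes 0.0986). PLK1, the kinase that acts from mitotic entry to cytokinesis, measured 8.18, 7.98 and 8.48 in TKO1 and 8.43, 8.23 and 8.28 in TKO2, against 8.12, 8.52 and 8.33 in NTKO and 8.06, 8.48 and 8.63 in WT. All lines overlapped, and TKO minus NTKO was -0.06 with an interval from -0.40 to 0.28. PLK4, the kinase of centriole duplication, averaged 9.76 ± 0.25 in TKO, 9.69 ± 0.10 in NTKO and 9.41 ± 0.05 in WT (SD, n = 6, 3 and 3), and TKO minus WT was 0.36 (adjusted p = 0.114).

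The spindle checkpoint was the role whose median was lower, not higher, on NTKO replicates 1 and 3. The median over its 5 genes lay at -0.31 and -0.17 from WT on those arrays, against 0.06 to 0.39 for the 6 other roles. BUB1, the kinase that recruits checkpoint proteins to kinetochores, measured 10.40, 10.88 and 11.12 in TKO1 and 10.22, 10.40 and 10.77 in TKO2, against 10.05, 10.33 and 10.07 in NTKO and 10.47, 10.43 and 10.33 in WT. NTKO replicate 2 overlapped TKO, and NTKO replicates 1 and 3 lay below every TKO array. BUB1 was the only checkpoint gene called (20% of the role, against 14.3% of all genes called higher on all arrays). TKO minus NTKO was 0.48 (SE 0.16, 1.40-fold, adjusted p = 0.0341) on all arrays and 0.57 (adjusted p = 0.00881) without NTKO replicate 2. That call was lost in 8 of 26 alternatives, with adjusted p from 0.000412 to 0.132. Among them were median centring and leaving out any of 5 arrays, namely NTKO replicates 1 and 3, TKO1 replicates 2 and 3 and TKO2 replicate 3. The methods' t-test, which is not among the 26, did not call BUB1 in this comparison.

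BUB1B encodes BubR1, an inhibitor of the anaphase-promoting complex. It measured 7.89, 8.04 and 8.42 in TKO1 and 7.98, 8.27 and 8.20 in TKO2, against 7.70, 7.99 and 7.81 in NTKO and 8.28, 7.90 and 7.95 in WT. Its NTKO replicates 1 and 3 were the lowest of the 12 arrays, and TKO minus NTKO was 0.30 with an interval from -0.02 to 0.63 (adjusted p = 0.151; 0.38, adjusted p = 0.0561, without NTKO replicate 2). MAD2L1, the core checkpoint protein Mad2, measured 10.96, 11.24 and 10.86 in TKO1 and 10.78, 11.19 and 11.10 in TKO2, against 10.95, 11.09 and 11.10 in NTKO and 11.58, 11.08 and 11.14 in WT. All lines overlapped and TKO minus NTKO was -0.02, with an interval from -0.32 to 0.28. TTK, the Mps1 kinase, and BUB3, a binding partner of both BUB1 and BubR1, differed by -0.17 and 0.06 in TKO minus NTKO and were not called. A further probe of BUB3 averaged 9.92 ± 0.12 in TKO, 9.80 ± 0.17 in NTKO and 10.31 ± 0.10 in WT (SD, n = 6, 3 and 3), and it passed over all kept probes in TKO minus WT (-0.39, adjusted p = 0.0438) and in NTKO minus WT (-0.51, adjusted p = 0.0441), where the probe used for the gene did not (0.12 and 0.05). Over all 61 kept probes of the list, 3 passed in TKO minus NTKO (27.5% of all 15596 kept probes), 3 in TKO minus WT (15.8%), 2 in NTKO minus WT (7.2%) and 0 in TKO1 minus TKO2 (0.718%).

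Of the 7 centromere and kinetochore genes 0 passed in TKO minus NTKO on all arrays, and without NTKO replicate 2, CENPA, NDC80 and SPC25 were lower (42.9%, against 23.9% of all genes). NDC80, which binds microtubules at the outer kinetochore, measured 8.74, 8.86 and 8.93 in TKO1 and 8.74, 8.92 and 8.60 in TKO2, against 9.28, 8.60 and 9.53 in NTKO and 8.72, 8.47 and 8.51 in WT. Both NTKO replicates 1 and 3 were above every other array, and NTKO replicate 2 lay within the WT range. The difference from NTKO was -0.34 (adjusted p = 0.158) on all arrays and -0.61 (SE 0.13, adjusted p = 0.0012) without it. SPC25, of the same complex, measured 8.51, 8.80 and 8.34 in TKO1 and 8.51, 8.60 and 8.48 in TKO2, against 9.28, 8.61 and 9.04 in NTKO and 9.10, 9.01 and 8.77 in WT. Here NTKO replicate 2 lay with the TKO arrays, below WT. For this gene TKO minus NTKO was -0.43 (SE 0.16, adjusted p = 0.0509) and TKO minus WT -0.42 (SE 0.16, adjusted p = 0.0851), and without NTKO replicate 2 both passed (adjusted p = 0.00185 and 0.0182).

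CENPA, the histone variant that marks centromeres, measured 9.54, 9.17 and 9.33 in TKO1 and 9.71, 9.60 and 9.31 in TKO2, against 10.06, 9.10 and 9.89 in NTKO and 9.44, 9.36 and 9.42 in WT. Of the 12 arrays NTKO replicates 1 and 3 were the highest and NTKO replicate 2 the lowest, and TKO minus NTKO was -0.24 (adjusted p = 0.343) on all arrays and -0.53 (SE 0.13, adjusted p = 0.00362) without replicate 2. A further CENPA probe differed by -0.69 there (adjusted p over probes 0.0035). SPC24, the partner of SPC25, had the lowest value of its 12 arrays on NTKO replicate 2 (8.65), against 9.54 and 9.58 on NTKO replicates 1 and 3. NUF2, the partner of NDC80, differed by -0.19 in TKO minus NTKO, and the kinetochore motor CENPE and the kinetochore protein CENPF by 0.09 each, with intervals within a 2-fold change.

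**Figure D3:**
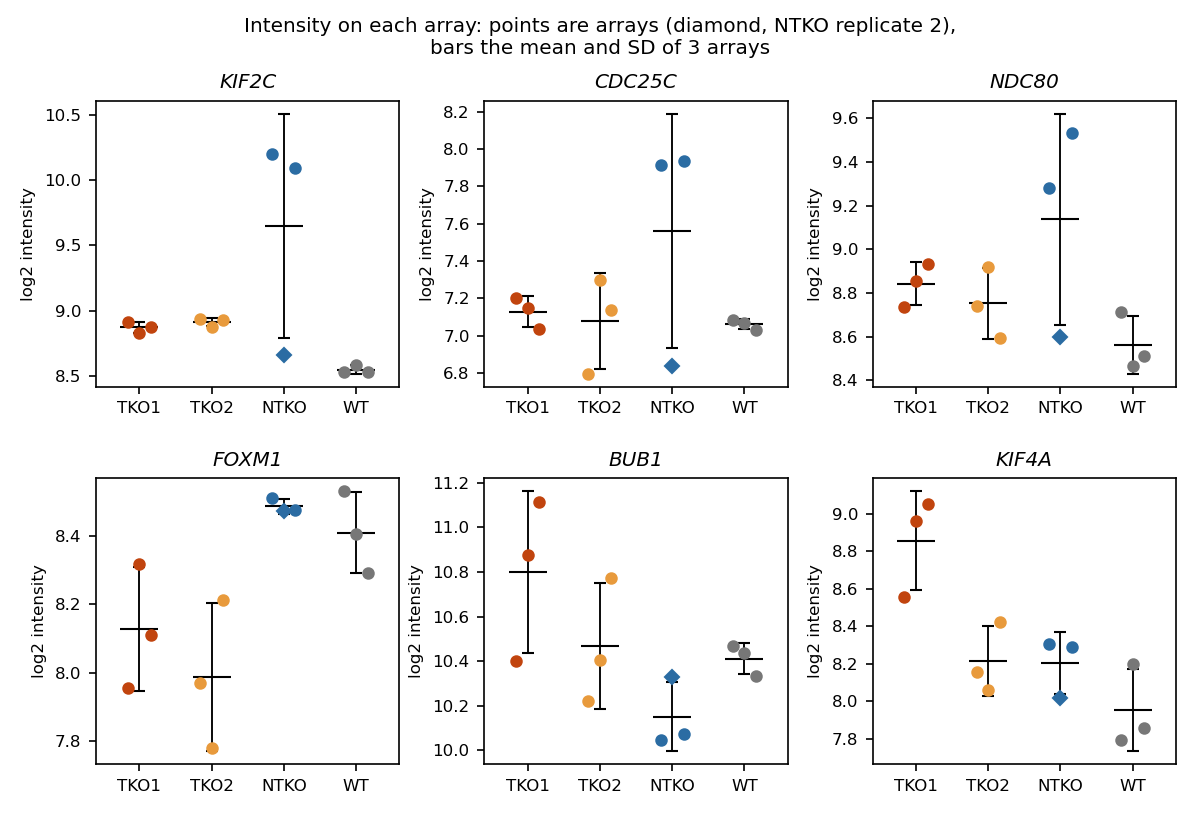
Log2 intensity of 6 genes on each array of TKO1, TKO2, NTKO and WT, with the mean and SD of each line's 3 arrays as bars; NTKO replicate 2 is the diamond. For KIF2C, CDC25C and NDC80 NTKO replicates 1 and 3 lie above all other arrays and replicate 2 does not, whereas the 3 FOXM1 values of NTKO lie within 0.04 of one another.

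The largest difference of the list was that of KIF2C, a motor (MCAK) that removes tubulin from microtubule ends and corrects faulty attachments. It measured 8.91, 8.83 and 8.87 in TKO1 and 8.93, 8.88 and 8.93 in TKO2, against 10.20, 8.66 and 10.09 in NTKO and 8.53, 8.59 and 8.53 in WT. Every TKO array lay above every WT array, and NTKO replicate 2 lay between them while the other NTKO arrays were above all. TKO minus NTKO was -0.76 (SE 0.25, adjusted p = 0.031), which is 1.69-fold lower in TKO, and NTKO minus WT was 1.10 (SE 0.28, adjusted p = 0.0278). Without NTKO replicate 2 these were -1.25 (SE 0.11, 2.38-fold lower in TKO, adjusted p = 9.63e-08) and 1.60 (SE 0.13, adjusted p = 6.53e-08), and TKO minus WT, 0.34, passed as well (adjusted p = 0.0132). Without NTKO replicate 1 or NTKO replicate 3 both KIF2C calls were lost. The call against NTKO was also lost without TKO1 replicate 2 or 3 or any TKO2 array, and the call against WT without any WT array or with median centring, with adjusted p reaching 0.209 and 0.167.

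KIF4A, a chromosome-bound motor of the spindle midzone, was the gene of the 41 in which the clones differed most. It measured 8.56, 8.96 and 9.05 in TKO1 and 8.16, 8.06 and 8.42 in TKO2, against 8.31, 8.02 and 8.29 in NTKO and 7.79, 8.20 and 7.86 in WT. The TKO1 arrays were above all other arrays, and TKO2 overlapped NTKO and WT. TKO minus WT was 0.58 (SE 0.15, adjusted p = 0.0158), a call lost without WT replicate 1 or WT replicate 3 and with median centring, and TKO1 minus TKO2 was 0.64 (SE 0.18, adjusted p = 0.147), which passed when NTKO replicate 2 was left out of the shared estimate of spread (adjusted p = 0.0367; of all genes 2.92% were then called, 1.54% higher and 1.38% lower in TKO1).

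PRC1, which bundles midzone microtubules, measured 10.10, 9.79 and 10.25 in TKO1 and 9.90, 9.97 and 10.10 in TKO2, against 10.52, 9.91 and 10.51 in NTKO and 10.27, 9.85 and 9.91 in WT. Its highest arrays were NTKO replicates 1 and 3, and without NTKO replicate 2, which lay within the WT range, TKO minus NTKO was -0.50 (SE 0.14, adjusted p = 0.00799). KIF20A, a cytokinesis motor, was lower in TKO as well in that comparison (-0.45, adjusted p = 0.0208) and differed by -0.38 (adjusted p = 0.0643) on all arrays. KIF11, the motor that separates spindle poles, averaged 9.70 ± 0.25 in TKO, 9.38 ± 0.07 in NTKO and 9.62 ± 0.11 in WT (SD, n = 6, 3 and 3). All its NTKO arrays lay below all WT arrays, and its TKO minus NTKO difference of 0.32 did not pass (adjusted p = 0.114). Without NTKO replicate 2 the further kept KIF11 probe passed (0.45, adjusted p over probes 0.0323). The probe used for the gene did not (0.36, adjusted p over probes 0.0716). KIF23, a component of centralspindlin, TPX2, which activates AURKA on spindle microtubules, and ANLN, the contractile ring protein anillin, differed between TKO and NTKO by 0.00, -0.08 and -0.15 and did not pass.

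Of the 4 anaphase genes all differences in TKO minus NTKO were negative, from -0.39 to -0.12, and 0 passed on all arrays (29.8% of all genes). Without NTKO replicate 2, 2 were lower (50%, against 23.9% of all genes). PTTG1 encodes securin, which holds separase inactive until anaphase. It measured 10.88, 10.23 and 10.34 in TKO1 and 10.81, 10.80 and 10.44 in TKO2, against 11.31, 10.45 and 11.18 in NTKO and 10.79, 10.79 and 10.70 in WT. In this gene NTKO replicates 1 and 3 were the highest arrays, while NTKO replicate 2 lay below WT and among the TKO arrays. Without it TKO minus NTKO was -0.66 (SE 0.15, adjusted p = 0.00192), and a further PTTG1 probe gave -0.86 (adjusted p over probes 0.00318); whether these probes separate PTTG1 from near-identical copies of the gene was not tested. ESPL1, which encodes separase, was lower in TKO in the same comparison (-0.41, adjusted p = 0.0346). CDC20, an activator of the anaphase-promoting complex, and UBE2C, its ubiquitin-conjugating enzyme, differed by -0.14 and -0.12 and did not pass, and UBE2C had the narrowest interval of the list, from -0.31 to 0.08.

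FOXM1, the transcription factor that activates many G2 and mitosis genes, was 1 of the 3 genes called in TKO minus NTKO (7.32% of the list, against 29.8% of all genes). It measured 7.96, 8.32 and 8.11 in TKO1 and 7.97, 7.78 and 8.21 in TKO2, against 8.51, 8.47 and 8.47 in NTKO and 8.53, 8.41 and 8.29 in WT. Every TKO array was below every NTKO array, NTKO replicate 2 included, and TKO1 replicate 2 was within the WT range. FOXM1 differed between TKO and NTKO by -0.43 (SE 0.14, 1.35-fold lower in TKO, adjusted p = 0.0271) on all arrays and by -0.43 (adjusted p = 0.0195) without NTKO replicate 2. The difference from WT was -0.35 (SE 0.14, adjusted p = 0.0897), and -0.35 (adjusted p = 0.0447) in the fit without that array. The further FOXM1 probe differed by -0.26 from NTKO (adjusted p over probes 0.272). The call was lost in 8 of 26 alternatives, among them median centring, the mean of the gene's kept probes, and leaving out any of 4 arrays (NTKO replicates 1 and 3, the first of TKO1 and the second of TKO2), with adjusted p from 0.00162 to 0.14.

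TOP2A, the topoisomerase that untangles sister chromatids, measured 11.78, 12.03 and 11.92 in TKO1 and 11.55, 11.69 and 11.55 in TKO2, against 11.95, 11.71 and 12.09 in NTKO and 11.80, 11.81 and 11.87 in WT. Every TKO1 array was above every TKO2 array, by 0.31 on average (adjusted p = 0.465), and TKO minus NTKO was -0.16 (adjusted p = 0.262) on all arrays and -0.27 (adjusted p = 0.0364) without NTKO replicate 2. MKI67, which encodes the proliferation marker Ki-67, measured 6.12, 6.60 and 6.26 in TKO1 and 5.80, 6.18 and 6.57 in TKO2, against 6.44, 6.55 and 5.89 in NTKO and 6.05, 6.05 and 6.14 in WT. All lines overlapped, and TKO minus NTKO was -0.04 with an interval from -0.46 to 0.38.

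Read array by array, the NTKO values rested on replicates 1 and 3. Both were above the WT range for 25 of 41 genes (61.0%, against 29.6% of all genes) and both below it for 4 (9.76%, against 33.3%), namely CDC25A, BUB1, BUB1B and KIF11. For 17 genes both were above WT while NTKO replicate 2 was not (41.5%, against 18.2% of all genes). NTKO replicate 2 itself was within the WT range for 15 genes, above it for 14 and below it for 12, shares of 36.6%, 34.1% and 29.3%, against 31.4%, 35.0% and 33.6% of all genes. The median over the 41 genes, minus WT, was 0.19, 0.05 and 0.30 on the 3 NTKO arrays and -0.09 to 0.13 on the 6 TKO arrays. Genes over 0.5 from the WT mean numbered 10 on NTKO replicate 1, 0 on replicate 2 and 8 on replicate 3, which is 24.4%, 0% and 19.5%, against 33.8%, 17.7% and 33.1% of all genes.

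**Figure D4:**
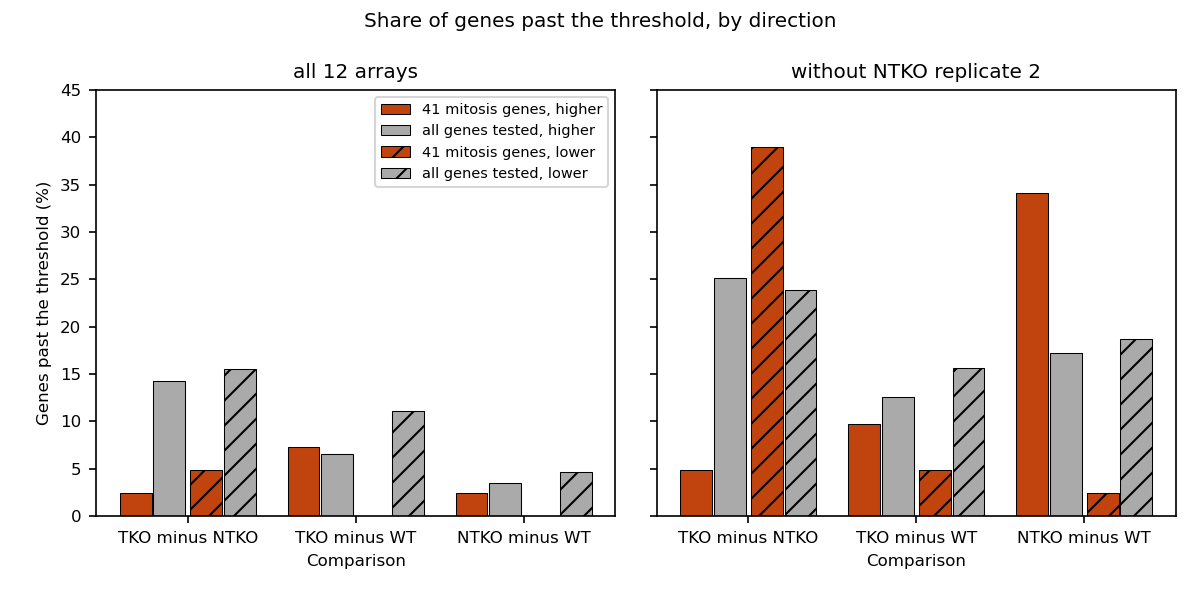
Percent of genes past an adjusted p of 0.05 in each comparison, higher (plain bars) and lower (hatched bars), for the 41 mitosis genes and for all 9857 genes tested, on all 12 arrays (left) and without NTKO replicate 2 (right). On 12 arrays the shares of mitosis genes in TKO minus NTKO lie under those of all genes in both directions; without NTKO replicate 2 the share lower in TKO is 39.0%, against 23.9%.

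Other genes of the same machinery changed in both directions in TKO minus NTKO. Over all genes 14.3% were called higher and 15.5% lower on all 12 arrays, and 25.1% and 23.9% without NTKO replicate 2, and the lists are read against these shares. The 22 genes of these lists named here were also called, in the same direction, without that array. That fit uses 11 of the same 12 arrays, so it is not separate evidence. Of 32 further kinetochore and checkpoint genes 3 were higher and 3 lower (9.38% each), with a median of 0.12. Leaving out NTKO replicate 2, 9 were higher (28.1%) and 7 lower (21.9%), and the median was -0.02. CENPO, of the inner kinetochore, averaged 6.96 ± 0.26 in TKO and 6.08 ± 0.11 in NTKO (SD, n = 6 and 3), a difference of 0.88 (adjusted p = 0.000714), and SKA1, which couples kinetochores to microtubules, differed by -0.58 (adjusted p = 0.0458). MAD1L1, which recruits Mad2, was higher in TKO by 0.55 (adjusted p = 0.0123). Of 22 further spindle and cytokinesis genes 2 were higher (9.09%), KIF15 (0.78) and CKAP2 (0.54), and 2 lower (9.09%), among them RACGAP1, the partner of KIF23 in centralspindlin (-0.53, adjusted p = 0.00496). The counts without NTKO replicate 2 were 6 (27.3%) and 5 (22.7%). Of 18 other mitotic kinase and phosphatase genes 6 were higher (33.3%) and 1 lower (5.56%), against 6 and 3 (16.7%) without NTKO replicate 2, and those with the largest differences were BORA, an activator of Aurora A (0.80), CDC14B (0.80) and PPP2R1A (0.68).

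Of 18 condensin and cohesin genes SMC2 was the only 1 to pass on all 12 arrays (5.56%), and it was lower in TKO (-0.80, adjusted p = 0.00669). On the other 11 arrays 3 were higher (16.7%) and 2 lower (11.1%). Of 16 genes of the anaphase-promoting complex 3 were higher (18.8%) and 1 lower (6.25%), or 5 (31.2%) and 2 (12.5%) without NTKO replicate 2, with ANAPC7 at 7.22 ± 0.16 in TKO and 6.11 ± 0.69 in NTKO (1.11, adjusted p = 0.0018), ANAPC1 higher (0.57) and CDC26 lower (-0.56). Of 17 MuvB and MYB regulators 6 were higher (35.3%) and 1 lower (5.88%) without NTKO replicate 2. On all 12 arrays 3 were higher (17.6%) and 0 lower, TFDP2 (0.76), MYBL2 (0.62, adjusted p = 0.0482) and RBBP4 (0.60), with a list median of 0.26. The clones themselves differed at TFDP2, which was called higher in TKO1 than in TKO2, as were 0.568% of all genes.

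The p53 and G2 arrest genes and the DNA replication genes, which neighbour mitosis in the cell cycle, had list medians on opposite sides of 0. Of 10 tested p53 and G2 arrest genes 4 were lower in TKO than NTKO (40%, against 15.5% of all genes) and 1 higher (10.0%, against 14.3%), with a median of -0.45, against 0.04 over all genes, and of -0.68 without NTKO replicate 2. GADD45A, an inhibitor of CDK1 activity, measured 8.91, 8.35 and 8.85 in TKO1 and 9.18, 9.29 and 9.06 in TKO2, against 10.41, 9.32 and 10.26 in NTKO and 9.60, 9.69 and 9.64 in WT. No TKO array reached the NTKO arrays, of which replicate 2 was the lowest, and the difference was -1.06 (SE 0.20, adjusted p = 0.00122), or -1.40 (adjusted p = 5.46e-07) without replicate 2. TP53I3 and CCNG1 differed by -0.89 and -0.62 (adjusted p = 0.00207 and 0.0188). Of 42 DNA replication genes 9 were higher in TKO (21.4%, against 14.3%) and 3 lower (7.14%, against 15.5%), with a median of 0.18, and the largest differences were those of PRIM1 (-0.82), POLD1 (0.81) and GINS2 (-0.80). Without NTKO replicate 2, 7 of the p53 genes were lower (70.0%, against 23.9% of all genes) and 1 higher, and 16 of the replication genes were higher (38.1%, against 25.1%) and 6 lower (14.3%, against 23.9%). The lists are described by counts alone, and no list was tested against the others.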

How the data were processed

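Samples were grouped by their titles, 3 Illumina HumanWG-6 v3 arrays for each of 4 lines. The authors exported the arrays with GenomeStudio (the version was not stated). They deposited background-subtracted intensity and a detection p-value for each of 48803 probes, and a second table of processed intensity, used as an alternative. Here neqc (limma 3.58.1, R 4.3.3, offset 16) was applied to the export, giving quantile-normalised log2 intensity. Kept probes had a detection p under 0.05 on every array of 1 line or more (15596 probes). Names came from the platform annotation through RefSeq: 27578 probes had 1 gene, 13 several and 21212 none. A gene's kept probe with the highest mean was used, and levels of different probes are not comparable. All arrays entered 1 limma fit of the line means (eBayes with trend and robust, statmod 1.5.0; TKO is the mean of 6 arrays). Tests were two-sided at an adjusted p of 0.05 (Benjamini-Hochberg, over 9857 genes, or over kept probes for further probes).

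The genes, their roles and the related lists were chosen with earlier results of these data known. Values on every array were given for CDK1, CCNB1, PLK1, AURKA, AURKB, BUB1B, MAD2L1, TOP2A, MKI67 and FOXM1 and for the called genes with the largest differences, up to 10 for TKO minus NTKO and up to 5 for each other comparison; those of CCNB2 and GADD45A were added after they were seen. Of each related list up to 3 called genes with the largest difference were named. The scripts were tested on simulated data. Alternatives were other background corrections, normalisations, filters, probe choices and tests, array weights, a replicate block, leaving out each array, and, added after seeing the data, renormalising without NTKO replicate 2. The 26 alternatives counted for the call of a single gene do not include the methods' t-test. In TKO minus NTKO that test called 0 of 41 genes at an unadjusted p of 0.002 (10.4% of all genes). After Benjamini-Hochberg adjustment it called 1, which was lower in TKO (17.9%). No pair of arrays held identical values.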

Additional observations from a re-analysis of the deposited data

Results flagged for a closer look

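AURKA was the only gene of the 41 in which an array lay far from the other TKO arrays by Dixon's criterion: TKO2 replicate 1 measured 10.44, the nearest TKO array 10.61 and the highest 10.70, and chance alone sets apart about 1 in 20 groups. The lines' distances from WT differed, by limma's TKO minus NTKO contrast, for BUB1 (0.48), KIF2C (-0.76) and FOXM1 (-0.43), at adjusted p of 0.0341, 0.031 and 0.0271. For FOXM1 all 6 TKO arrays lay below the WT mean and all 3 NTKO arrays above it, by -0.35 and 0.08 on average.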

How the results depend on the processing

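No call of a mitosis gene changed direction under any alternative. In TKO minus NTKO 3 genes passed (29.8% of all genes), against 23 with array weights (59.0% of all genes), 1 with median centring (22.8%), 1 with no detection filter (14.3%), 0 with only the lines compared in the fit, 0 with the methods' t-test at an unadjusted p of 0.002 and 1 after Benjamini-Hochberg (24.1%, 10.4% and 17.9% of all genes in these 3), 18 on renormalising without NTKO replicate 2 (49.4%), and 0 (without NTKO replicate 1 or 3) to 18 (without NTKO replicate 2) on leaving out each array, with 1 without TKO1 replicate 3 or TKO2 replicate 2. In TKO minus WT 3 passed (17.7%), against 8 with array weights (36.0%), 1 (lower) with median centring (18%), 5 with only the lines compared (26.1%), 6 on renormalising without NTKO replicate 2 (27.1%), and 0 (without WT replicate 1 or 3) to 6 (without NTKO replicate 2) on leaving out each array. In NTKO minus WT 1 passed (8.2%), against 23 with array weights (55.1%), 0 with median centring (9.81%), 0 with only the lines compared (2.17%), 0 with the methods' t-test both ways (2.08% and 0.771%), 15 on renormalising without NTKO replicate 2 (36.2%), and 0 (without any WT array, or NTKO replicate 1 or 3) to 15 (without NTKO replicate 2) on leaving out each array. In TKO1 minus TKO2 0 passed (0.862%), against 1 with array weights (2.4%), 1 on renormalising without NTKO replicate 2 (2.59%), and 0 to 1 (without NTKO replicate 2) on leaving out each array. Fits without NTKO replicate 2 called 48.9%, 28.2%, 35.9% and 2.92% of all genes, in the order above. Where leaving out an array gave 0 calls, the share was 18.3% to 18.8% in TKO minus NTKO and 11.6% to 11.7% in TKO minus WT. It was 2.94% to 3.99% in NTKO minus WT and 0.396% to 0.751% in TKO1 minus TKO2. Median centring moved the median of all genes to -0.17 in TKO minus WT, against 0.04, and to -0.19 in NTKO minus WT, against -0.01, and the share of calls over all genes that were higher to 13.5% and 15.1%, against 37.3% and 42.7%. The median over the mitosis genes was then -0.21 in TKO minus WT and -0.05 in NTKO minus WT, so its sign turned in both, though relative to all genes it stayed above in NTKO minus WT. With array weights that median was -0.26 in TKO minus NTKO. The causes were not tested. With the replicate block 4 genes passed in TKO minus NTKO (32.3% of all genes), 3 in TKO minus WT (19.4%), 1 in NTKO minus WT (10.2%) and 0 in TKO1 minus TKO2 (0.872%). Same-numbered arrays correlated at -0.14 to 0.504 in their deviations, over 0.1 in 6 of 18 pairs, and the labels name nothing that a number marks, so the numbers were not taken to pair the arrays. Replicates 1 of TKO1 and TKO2, and likewise replicates 3, correlated at 0.504, and 7 of 12 arrays correlated best with their own number, a hint from the data and not from the design. With 3 arrays per line the 95% interval of TKO minus NTKO reached 0.195 (UBE2C) to 0.526 (KIF2C) to either side on the log2 scale, and some differences beyond their own interval's reach, such as KIF20A at -0.38, did not pass after adjustment.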
